A study of Homo sapiens with 24 samples.

Results

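The genes encoding mitochondrial ribosomal proteins were described across a pancreatic cancer cell line, with and without induction of the transcription factor C/EBPδ. The members were all protein-coding genes whose symbol starts with MRPL or MRPS, of which 78 were found among the 60675 Ensembl identifiers of the count table. MRPL symbols stand for 49 of them and MRPS symbols for 29. By the place of the protein in the ribosome, 51 belong to the large subunit, 26 to the small subunit, and MRPS36 belongs to neither. Of the 78, 46 have a bacterial homologue and 29 are proteins of the mitochondrial ribosome alone.

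Mitochondria carry ribosomes of their own, which translate the few mRNAs transcribed from mitochondrial DNA. These mRNAs encode core subunits of the respiratory chain and of ATP synthase. The ribosomal RNAs also come from mitochondrial DNA, whereas every protein of this ribosome is encoded in the nucleus, made in the cytosol and imported. The large subunit holds the catalytic centre and the exit tunnel, and the small subunit binds the mRNA and decodes it.

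RNA was sequenced from MIA PaCa-2 cells, an established line from a human pancreatic carcinoma, after depletion of ribosomal RNA. The CTRL line carried a doxycycline-inducible vector without cDNA and a red reporter, and the CEBPD line carried the same kind of vector with the cDNA of CEBPD, the gene of C/EBPδ, and a different reporter. The CEBPD line was a pool of 3 clones, so both lines differed in their derivation as well as in the insert. Each line was sampled at 0, 8, 24 and 48 h in 3 wells, giving 8 groups and 24 libraries. The labels list doxycycline at 2 µg/ml for every sample, the 0 h samples included, whereas the methods of the study describe cells without doxycycline as the baseline. No label ties wells to separate cultures, so every p-value measures the spread between wells.

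CEBPD averaged 3.94 ± 0.241 CPM, that is counts scaled to a common library size (SD, n = 3), in the CTRL line at 0 h and 21.5 ± 2.30 CPM in the CEBPD line at 0 h. After doxycycline, CEBPD in that line reached 246 ± 17 CPM at 8 h, 308 ± 10.9 CPM at 24 h and 205 ± 6.5 CPM at 48 h, and in the CTRL line its group means stayed between 1.90 and 4.01 CPM. The induced line therefore already differed in CEBPD at 0 h. Total counts ran from 12731237 to 22598595 per library. VIM, KRT8 and KRT18 were detected in every library, and of the lineage markers of T cells, endothelium, fibroblasts, erythroid cells and hepatocytes none exceeded 44 counts in a library. CDKN2A, a gene known to be deleted in these cells, had 0 to 17 counts. Well 3 of the CEBPD line at 8 h stood apart with the lowest total and with 6085 CPM of mitochondrial ribosomal RNA, a residue of the depletion that lay between 64.7 and 1539 CPM in the other 23 libraries. Wells 1 and 3 of the CTRL line at 8 h differed more from each other than any other pair of wells of a group. Counts of members called at 8 h are therefore also given without some of these wells.

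Together the 78 genes took between 0.424% and 0.474% of the counts of a library. Levels of different genes were compared as CPM per kb of merged exon length. The median gene had 19 CPM per kb, and the levels spanned from 0.176 to 152 CPM per kb. MRPL51, a large-subunit protein without a bacterial homologue, was highest at 152 CPM per kb. MRPS35, a small-subunit protein near the path of the mRNA, followed with 75 CPM per kb and MRPL3, a core protein close to the catalytic centre, with 72.6 CPM per kb. The values of these 2 neighbours in the order lay close together, and MRPL3 has a pseudogene that was itself counted at 17.6 CPM. With the length of the canonical transcript, a choice made after seeing the data, MRPL51 kept the first place at 234 CPM per kb, followed by MRPL3 at 115 and MRPL37 at 114 CPM per kb.

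The lowest genes were MRPL23 at 0.176, MRPS24 at 0.273 and MRPS28 at 1.08 CPM per kb, and they were also the lowest 3 per canonical length. MRPL23, a protein at the tunnel exit, had 4 to 19 counts in a library and was left out by the filter on low counts in some comparisons, in which 77 genes were tested. MRPS24 had 7 to 20 counts in a library, although it encodes a core protein of the small subunit. It shares 606 exon bases with the read-through gene URGCP-MRPS24 on the same strand. In all, 18 genes shared exon sequence with another gene on the same strand and 30 with a gene on the opposite strand, and for 36 genes the genome holds pseudogenes. How the counting treated the strand, reads in shared exon bases and multi-mapped reads is not given in the sources used here. The levels of these genes carry that uncertainty, the low counts of MRPS24 included.

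**Figure D1:**
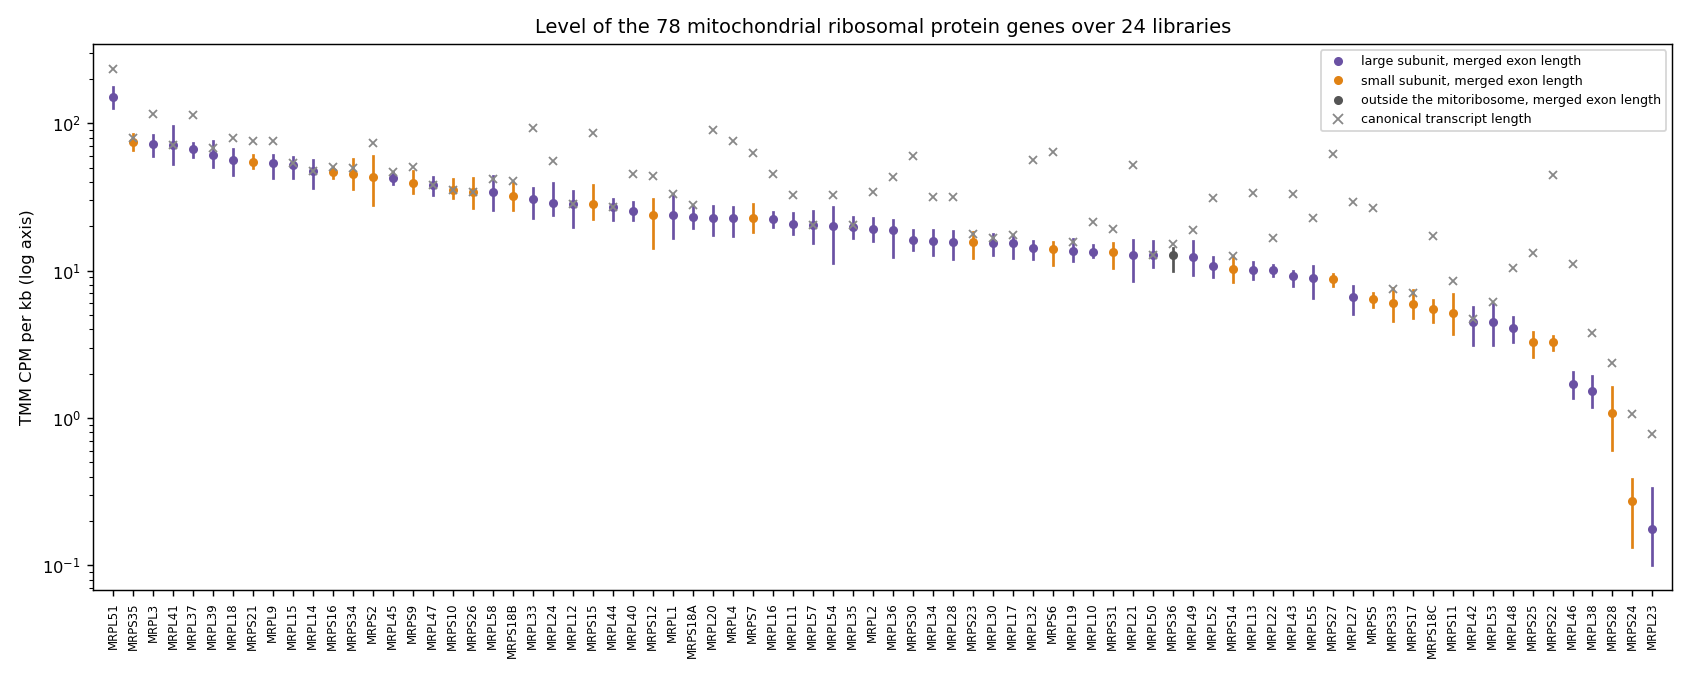
Level of each of the 78 genes in TMM-scaled CPM per kb of merged exon length (log axis), ordered by the mean over 24 libraries. Points are means, vertical lines run from the lowest to the highest library, colours mark the subunit, and crosses give the mean per kb of canonical transcript. MRPL51 leads at 152 CPM per kb, and MRPL23, MRPS24 and MRPS28 lie far under the median of 19.

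The first question was how the lines differed before induction. At 0 h 16 genes were higher and 18 lower in the CEBPD line than in the CTRL line out of 78 tested, at a false discovery rate (FDR) under 0.01 in edgeR's quasi-likelihood test. This was 43.6% of the genes, and 43.9% of all 15317 genes tested were called in the same comparison (20% higher and 23.9% lower), so the share of ribosomal protein genes was near that of any gene. Their median log2 difference was 0.05, against 0.01 over all genes. With library totals in place of the TMM factors the split was 28 higher and 16 lower.

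The largest decrease was in MRPL57, a small large-subunit protein of mitochondria. Its wells in the CTRL line had 52.7, 54.4 and 53.2 CPM and those in the CEBPD line 34.1, 34.7 and 35.8 CPM. The groups lay far apart, with a log2 difference of -0.62 ± 0.05 (SE, edgeR adjusted p = 1.12e-09). MRPS2, a core protein on the back of the small subunit, had 146, 149 and 150 CPM in the CTRL wells and 94.2, 97.6 and 100.3 CPM in the CEBPD wells. Its log2 difference was -0.61 ± 0.04 (edgeR adjusted p = 1.85e-11). MRPL33, a small protein of the large subunit, had a log2 difference of -0.58 ± 0.05, MRPL41 one of -0.47 ± 0.05 and MRPL49 one of -0.43 ± 0.05.

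In the other direction, MRPL34, a short protein of the large subunit with a bacterial homologue, had 20.4, 21.0 and 19.4 CPM in the CTRL wells and 26.4, 27.9 and 28.9 CPM in the CEBPD wells. The wells did not overlap, and the log2 difference was 0.45 ± 0.06 (edgeR adjusted p = 4.91e-06). MRPS34, a small-subunit protein of mitochondria, was higher by 0.39 ± 0.06, MRPL54 by 0.34 ± 0.07, MRPS15 by 0.33 ± 0.04 and MRPL20 by 0.31 ± 0.06.

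The line differences were set beside the position of the genes in the genome. All 3 members on chromosome 9, MRPS2, MRPL41 and MRPL50, were lower at 0 h, and so was the median gene of that chromosome, at a log2 difference of -0.41. Both members on chromosome 13, MRPL57 and MRPS31, were lower where the chromosome's median was -0.24, and MRPS26 on chromosome 20 differed by -0.34 where the median was -0.24. Next to MRPS2, 108 other tested genes lay within 5 Mb, of which 9.26% had a positive log2 difference. Around MRPL33 on chromosome 2 the share was 15.3% of 85 genes, with a median of -0.27. Among the 34 genes called, 29 lay on the side of their neighbours' median, including all 16 that were higher and 13 of the 18 that were lower. This was 85.3% of those called, against 63.8% of all called genes, and by direction 100% of the higher and 72.2% of the lower against 79% and 51%. The difference from all genes was not tested. Over the 78 genes the difference and the neighbours' median had a Pearson r of 0.671 and a Spearman rho of 0.478, a description across genes that share libraries and, in part, neighbours. MRPL49 on chromosome 11 was among the exceptions, since the median of its 215 neighbours was 0.03. The members' median and that of all genes had opposite signs on chromosomes 10, 14, 15 and 21. On chromosome 15 these were -0.30 and 0.10, and on chromosome 14, with 1 member, 0.15 and -0.17. What sets these differences was not tested.

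**Figure D2:**
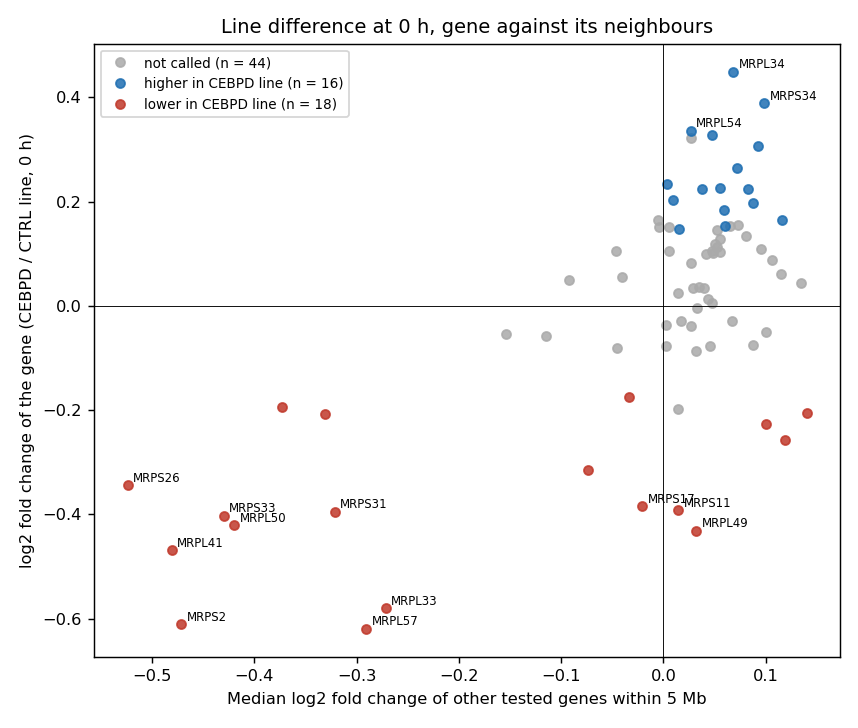
Log2 difference between the CEBPD and CTRL lines at 0 h for each of the 78 genes (vertical axis) against the median log2 difference of the other tested genes within 5 Mb (horizontal axis). Blue points passed the test as higher, red as lower and grey points did not pass. Of 34 called genes, 29 have the same sign on both axes, and MRPS2, MRPL41 and MRPL50 on chromosome 9 stand at the lower left.

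The same comparison at later times used other wells. At 8 h 8 genes were higher and 10 lower of 77 tested (23.4%, against 31.8% of all genes, 14.3% higher and 17.4% lower). Without CEBPD well 3 these were 4 and 7, without CTRL well 1 they were 9 and 14, and without CTRL well 3 they were 9 and 10. Leaving out CTRL well 2 gave 2 and 7, CEBPD well 1 gave 1 and 6, and CEBPD well 2 gave 3 and 6. At 24 h 24 genes were higher and 17 lower of 78 (52.6%, against 46.9% of all genes, 21.5% higher and 25.3% lower), and with library totals 35 and 13. At 48 h 17 were higher and 10 lower of 77 (35.1%, against 38.3%, 17.6% higher and 20.7% lower). In all, 50 of the 78 genes passed in at least 1 of the 4 line comparisons and none passed in both directions. Of the 77 tested at every time this was 64.9%, against 62.5% of all genes, and 0.817% of all genes passed in both directions.

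Lower at all 4 times were 6 genes, MRPL28, MRPL49, MRPL57, MRPS2, MRPS18B and MRPS33. Of all genes tested at every time, 13% were called lower at all 4. Higher at all 4 times were 4 genes, MRPL1, MRPL21, MRPS15 and MRPS23, against 8.86% of all genes. The log2 difference of MRPS2 lay between -0.81 and -0.57 over these times and that of MRPL57 between -0.62 and -0.42, and MRPL49 stood at -0.43 at 0 h. The largest at 0 h among those higher were MRPS15 at 0.33, MRPL1 at 0.27 and MRPS23 at 0.23. MRPL1, which forms the mobile stalk beside the exit site of tRNA, was higher by 0.27 at 0 h and by 0.60 at 48 h. At 24 h the largest increases were those of MRPS15 at 0.60 ± 0.04, MRPL54 at 0.51 ± 0.06, MRPL58 at 0.38 ± 0.05, MRPL21 at 0.38 ± 0.05 and MRPL20 at 0.33 ± 0.04. MRPL58 is a peptidyl-tRNA hydrolase that became a ribosomal protein. The largest decreases at 24 h were those of MRPS2 at -0.60 ± 0.04, MRPL57 at -0.51 ± 0.05, MRPS11 at -0.41 ± 0.06, MRPL41 at -0.40 ± 0.05 and MRPS18B at -0.37 ± 0.04.

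The second question was how each line changed after doxycycline was given. In the CTRL line no gene of 77 passed at 8 h, where 1.7% of all genes did (0.905% rising and 0.793% falling). At an unadjusted p under 0.05 in edgeR 7 genes were found, and DESeq2 also called 0. Without well 1 of 8 h 1 gene was called. By 8 h in the CEBPD line, 3 genes rose and 15 fell (23.4% of 77, against 30.5% of all genes, 14.6% rising and 15.8% falling), and leaving out well 3 of 8 h gave 2 and 15. With library totals the split was 5 and 12. Analysis of variance for each gene, the kind of test the study used, called 0 in this line at 8 h. MRPS2 fell by 0.32 and MRPL41 by 0.28 on the log2 scale, while MRPL1 rose by 0.32. These examples were chosen after their values were seen.

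By 24 h few genes passed the test. The CTRL line had 3 that rose and 1 that fell of 77 (5.19%, against 6.06% of all genes, 2.81% rising and 3.25% falling). The median log2 change was 0.02 in this line and 0.06 in the CEBPD line, against 0.003 and 0.004 over all genes. MRPS10, a core protein of the head of the small subunit, had 67.2, 65.6 and 68.5 CPM at 0 h and 78.2, 82.5 and 83.5 CPM at 24 h. Its wells did not overlap, and it rose by 0.27 ± 0.04 (edgeR adjusted p = 0.00011). MRPL24, which lies at the exit of the tunnel, rose by 0.25 ± 0.05 and MRPL19 by 0.17 ± 0.04, and MRPS2 fell by 0.14. With library totals 4 rose and 0 fell. Only 2 genes passed without CTRL well 2 or 3 of 0 h or well 1 or 2 of 24 h. The CEBPD line had 4 genes that rose and 0 that fell of 78 (5.13%, against 15.5% of all genes, 7.33% rising and 8.14% falling), with 26 genes at an unadjusted p under 0.05 in edgeR and DESeq2 also calling 4 rising and 0 falling. These were MRPL33 at 0.38 ± 0.05, MRPS15 at 0.37 ± 0.04, MRPL58 at 0.25 ± 0.05 and MRPL51 at 0.13 ± 0.03. With library totals 7 genes rose, and without well 2 of 0 h 2 did. Analysis of variance for each gene called 0 by 24 h in either line. MRPL33 had 38.4, 36.3 and 36.6 CPM in the CEBPD line at 0 h and 45.8, 50.4 and 49.0 CPM at 24 h, so that the wells were clearly separate.

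By 48 h many genes had fallen in both lines. The CTRL line had 4 that rose and 24 that fell of 77 (36.4%, against 30% of all genes, 15.2% rising and 14.7% falling), and the median log2 change was -0.11, against 0.01 over all genes. The CEBPD line had 9 that rose and 21 that fell of 78 (38.5%, against 38.7% of all genes, 19.1% rising and 19.5% falling), with a median of -0.04. The number falling depended on the scaling: with library totals it was 16 in the CTRL line, where 7 rose, and 13 in the CEBPD line, where 14 rose. Between both comparisons, which share no library, 15 falling genes were common. They were 62.5% of those that fell in the CTRL line and 71.4% of those in the CEBPD line. Over all genes these shares were 76.9% and 58%. Across the 77 genes tested in both, the changes of the lines had a Pearson r of 0.621, and across all genes 0.676.

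MRPS12, a core protein of the decoding centre, showed the largest fall in each line among the genes that passed, as read after the values were seen. The thinly counted MRPS28 had a log2 change of -0.53 in the CEBPD line that did not pass (edgeR adjusted p = 0.0768). In the CTRL line MRPS12 had 48.6, 41.8 and 44.5 CPM at 0 h and 30.2, 24.9 and 27.4 CPM at 48 h. This was a log2 change of -0.71 ± 0.08 (edgeR adjusted p = 3.29e-05). Its CEBPD wells had 48.3, 50.9 and 51.3 CPM at 0 h and 37.6, 35.3 and 35.4 CPM at 48 h, a change of -0.50 ± 0.05 (edgeR adjusted p = 7.55e-09). The wells of 0 h and 48 h did not overlap in either line. MRPS2 fell by 0.48 in the CTRL line and by 0.46 in the CEBPD line. MRPL14, MRPL27, MRPL36, MRPL41 and MRPS11 also fell in both. MRPL19 rose in both lines, by 0.26 and by 0.32, and MRPL33 alone passed in opposite directions.

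**Figure D3:**
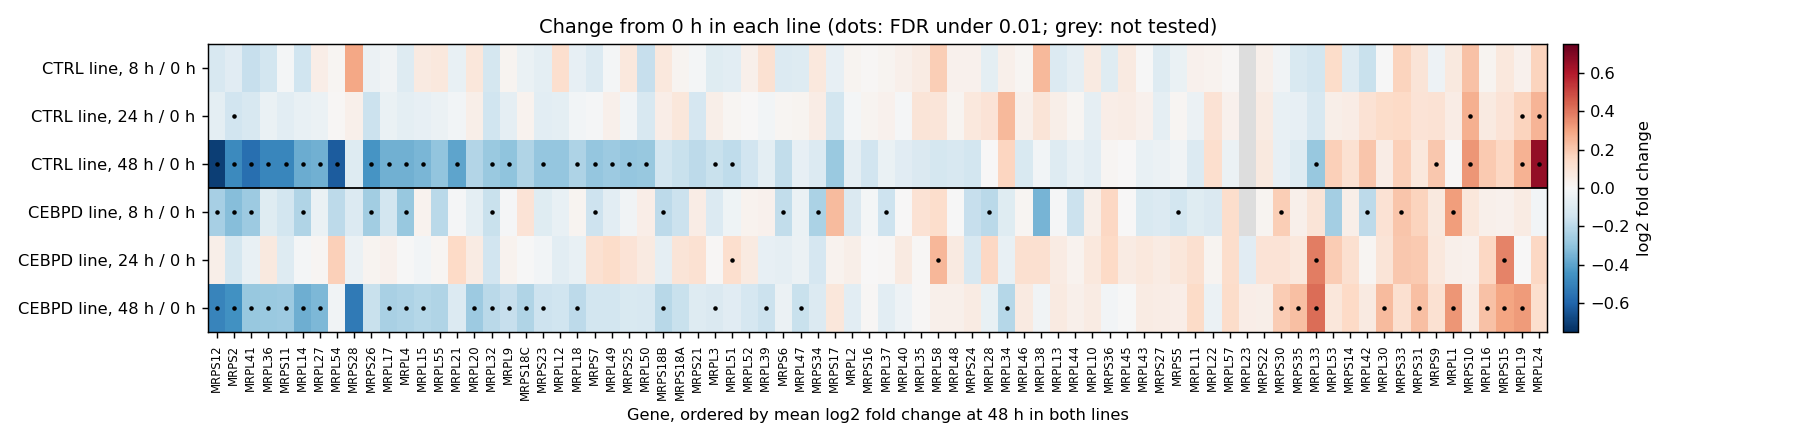
Log2 change of each of the 78 genes from 0 h to 8, 24 and 48 h in the CTRL line (upper 3 bands) and the CEBPD line (lower 3 bands), ordered by the mean change at 48 h in both. Blue is lower and red higher than at 0 h, dots mark an FDR under 0.01 and grey marks a gene not tested. The dots gather at 48 h, 28 in the CTRL line and 30 in the CEBPD line, with MRPS12 at one end and MRPL24 at the other.

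The third question was which genes changed differently in the CEBPD line than in the CTRL line, which takes out the difference between the lines at 0 h and what both lines share over time. No gene of 78 passed this interaction test at 8 h (1.66% of all genes did, 0.887% higher and 0.77% lower), with 12 genes at an unadjusted p under 0.05 in edgeR and 0 called by DESeq2. Without CTRL well 3 of 8 h 2 genes were called. At 24 h 3 genes passed, all with a higher change in the CEBPD line, where 5.84% of all genes passed (2.86% higher and 2.98% lower). At 48 h 3 genes had a higher and 1 a lower change, where 5.54% of all genes passed (2.83% higher and 2.72% lower). With library totals these were 2 and 1 at 24 h and 3 and 2 at 48 h. The comparisons at 24 h and 48 h share their 0 h wells.

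Among the genes that passed, MRPL33 had the largest interaction at both times (Ensembl ENSG00000243147, GRCh38 chromosome 2, 27771717 to 27988087, plus strand). In the CTRL line it had 55.6, 55.5 and 54.7 CPM at 0 h and 52.2, 48.5 and 52.9 CPM at 24 h, and in the CEBPD line it went from 36.3 to 38.4 CPM up to 45.8 to 50.4 CPM. At 48 h the CTRL wells had 40.7, 47.9 and 47.8 CPM and the CEBPD wells 48.7, 51.4 and 50.5 CPM. The 2 lines thus started apart and came to overlap at 24 h, and at 48 h every CEBPD well was above every CTRL well. That difference between the lines at 48 h, 0.14 on the log2 scale, did not pass (edgeR adjusted p = 0.132). The change in the CEBPD line exceeded that in the CTRL line by 0.51 ± 0.07 on the log2 scale at 24 h (edgeR adjusted p = 6.36e-06) and by 0.69 ± 0.08 at 48 h (edgeR adjusted p = 1.30e-05). The gene shares 324 exon bases with BABAM2 on the same strand.

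MRPS15, which binds the small ribosomal RNA (chromosome 1, 36455718 to 36464384, minus strand), had 66.1, 65.8 and 64.0 CPM in the CTRL line at 0 h and 72.6, 70.3 and 68.9 CPM at 24 h. Its CEBPD wells had 83.1, 82.6 and 80.7 CPM at 0 h and 101, 108 and 110 CPM at 24 h. In each line the 24 h wells lay above those of 0 h, but only the change in the CEBPD line passed the test (0.37, against 0.10 in the CTRL line). The interaction was 0.28 ± 0.05 (edgeR adjusted p = 0.00104). The difference at 48 h was 0.14 and did not pass.

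MRPS21, another core protein of the small subunit (chromosome 1, 150293861 to 150308979, plus strand), had an interaction of 0.25 ± 0.06 at 24 h (edgeR adjusted p = 0.00806). Its CEBPD wells had 77.9 to 86.3 CPM at 0 h and 88.9 to 90.8 CPM at 24 h, and its CTRL wells 79.7 to 88.2 CPM and 77.5 to 80.7 CPM. The CEBPD wells of 0 h and 24 h did not overlap, but neither line's own change passed the test. The call was lost in 14 of 20 alternatives, among them leaving out any of the 6 wells at 24 h.

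MRPL54, a large-subunit protein of mitochondria (chromosome 19, 3762682 to 3768575, plus strand), separated the lines at 48 h. The CTRL wells had 16.8, 18.6 and 19.3 CPM at 0 h and 11.1, 11.7 and 12.8 CPM at 48 h, a fall of all wells. The CEBPD wells had 22.5, 22.6 and 24.3 CPM at 0 h and 24.9, 23.0 and 21.2 CPM at 48 h, which overlap. Its interaction was 0.59 ± 0.12 (edgeR adjusted p = 0.00237), and it was lost without CTRL well 3 of 0 h, among the wells left out 1 at a time. MRPS35 had an interaction of 0.32 ± 0.06 (edgeR adjusted p = 0.00315), with CEBPD wells at 133 to 136 CPM at 0 h and 155 to 163 CPM at 48 h, and it was lost without CEBPD well 1 or 3 of 0 h or CEBPD well 2 of 48 h.

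MRPL24 was the only member that passed with a lower change in the CEBPD line (chromosome 1, 156737303 to 156741590, minus strand). In the CTRL line it had 41.2, 41.1 and 40.2 CPM at 0 h, 49.1, 49.5 and 48.3 CPM at 24 h, and 66.5, 63.1 and 64.0 CPM at 48 h. The wells of the 3 times formed separate groups in this line. Its CEBPD wells had 43.0, 45.4 and 47.5 CPM at 0 h and 49.6, 50.6 and 50 CPM at 48 h. The interaction at 48 h was -0.55 ± 0.07 (edgeR adjusted p = 2.36e-05).

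**Figure D4:**
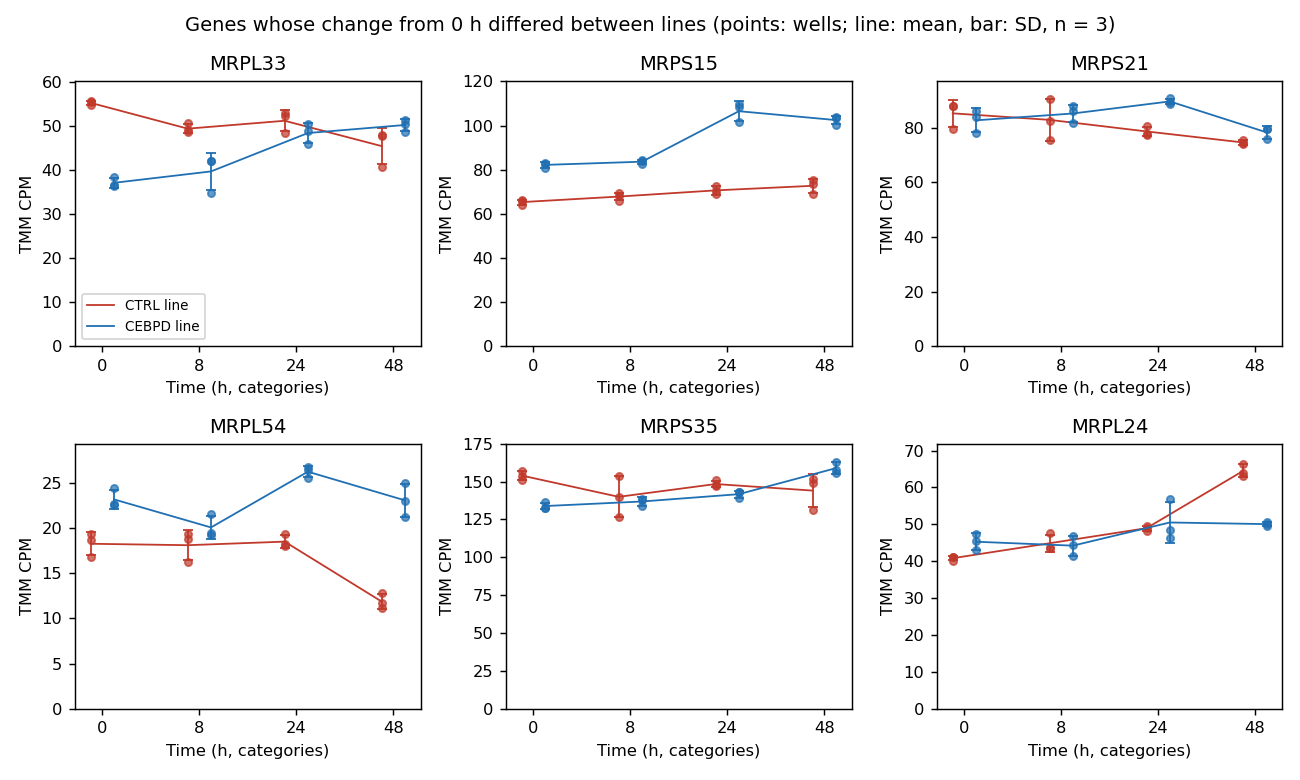
TMM-scaled CPM of the 6 genes whose change from 0 h differed between the lines at 24 h or 48 h, by time (horizontal axis, as categories) in the CTRL line (red) and the CEBPD line (blue). Points are wells, lines join the means and bars are SD (n = 3). MRPL33 starts lower in the CEBPD line, at 36.3 to 38.4 CPM. Its wells lie above those of the CTRL line at 48 h, a difference that did not pass. MRPL24 reaches 63.1 to 66.5 CPM in the CTRL line alone.

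The sequence before the start of transcription was compared among the genes. RefSeq promoter windows on GRCh38.p14, from 250 bases before to 50 bases after the start, were found for 69 of the 78 genes. Not matched were MRPL2, MRPL10, MRPL13, MRPL15, MRPL21, MRPL23, MRPL35, MRPS28 and MRPS36. The 150 bases before the start are shown for 4 of the 6 genes with a called interaction, leaving out MRPL24 and MRPS35, and for MRPS12, 5′ to 3′ on the strand of the gene, with the motifs CCGGAAG (ETS), CCAAT and TACAACTCC (ZNF143), on either strand, in capitals. The windows are chr2:27771569-27771718 (plus) for MRPL33, chr1:36464385-36464534 (minus) for MRPS15, chr1:150293711-150293860 (plus) for MRPS21, chr19:3762532-3762681 (plus) for MRPL54 and chr19:38930794-38930943 (plus) for MRPS12.
MRPL33: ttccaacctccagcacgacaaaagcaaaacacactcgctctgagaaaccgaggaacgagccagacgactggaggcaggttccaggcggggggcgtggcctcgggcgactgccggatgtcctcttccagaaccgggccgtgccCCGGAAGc
MRPS15: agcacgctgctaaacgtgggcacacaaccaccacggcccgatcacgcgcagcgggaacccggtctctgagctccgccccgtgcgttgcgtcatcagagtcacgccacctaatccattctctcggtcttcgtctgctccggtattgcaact
MRPS21: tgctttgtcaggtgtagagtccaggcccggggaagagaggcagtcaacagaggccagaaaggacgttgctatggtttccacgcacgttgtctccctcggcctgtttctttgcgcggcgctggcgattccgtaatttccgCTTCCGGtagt
MRPL54: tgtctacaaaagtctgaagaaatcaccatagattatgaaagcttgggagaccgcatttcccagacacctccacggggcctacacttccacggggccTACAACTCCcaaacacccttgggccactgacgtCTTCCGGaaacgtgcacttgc
MRPS12: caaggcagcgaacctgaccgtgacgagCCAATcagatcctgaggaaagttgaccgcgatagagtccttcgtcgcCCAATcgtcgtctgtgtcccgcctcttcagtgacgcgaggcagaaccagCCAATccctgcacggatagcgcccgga

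The ETS motif CCGGAAG, bound by factors such as GABP, was present on either strand in 29 of 69 windows (42%) and in 10.7% of 27305 windows of all genes. This background was not filtered for protein-coding or expressed genes, whereas the members are all protein-coding. The ETS motif stands close before the start in MRPL33, MRPS21 and MRPL54. The YY1 motif AAGATGGCG was present in 13 windows (18.8%, against 1.85% of all). The NRF1 motif GCGCATGCG was present in 3 windows, those of MRPL17, MRPL22 and MRPS18C (4.35%, against 2.1%). The C/EBP motif TTGCNNAA was present in 6 windows (8.7%, against 10.6%), those of MRPL3, MRPS10, MRPS14, MRPS18B, MRPS30 and MRPS31. The box CCAAT was present in 20 windows (29%, against 35.7%), with 4 copies in that of MRPS12, of which 3 are printed above, and the E-box CACGTG in 6 (8.7%, against 7.43%). TATAAA was present in the windows of MRPL54 and MRPS15 (2.9%, against 12%). The motif TACAACTCC of ZNF143, searched after the windows had been read, was present in those of MRPL24, MRPL50 and MRPL54 (4.35%, against 0.718%). The median GC content was 60.3% in these windows and 58.3% in all. Each motif was searched on both strands on its own, whether or not it overlapped another. A match describes the letters of the window and no binding was measured.

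The starts of 17 of the 78 genes (21.8%) lay within 1 kb of the start of a protein-coding gene on the other strand, against 8.54% of 20033 protein-coding genes. MRPS11 and MRPL46 are such a pair and are both members. MRPS11, on the platform of the small subunit, was lower in the CEBPD line at 0 h (log2 difference -0.39 ± 0.06), whereas MRPL46 differed by -0.20 ± 0.09 and did not pass (edgeR adjusted p = 0.0573). At 48 h MRPS11 fell in the CTRL line by 0.49 and MRPL46 changed by -0.11, which did not pass. MRPS12 is paired with SARS2, the mitochondrial seryl-tRNA synthetase, and MRPL36 with NDUFS6, a subunit of respiratory complex I.

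By 48 h 2 genes of the large subunit rose and 17 fell of 50 in the CTRL line, and 2 rose and 7 fell of 26 in the small subunit. The corresponding numbers in the CEBPD line were 6 and 15 of 51, and 3 and 6 of 26. Of genes with a bacterial homologue 4 rose and 16 fell of 45 in the CTRL line and 6 rose and 17 fell of 46 in the CEBPD line. Of genes without one, 0 rose and 8 fell of 29, and 3 rose and 3 fell of 29. Of all genes tested, 15.2% rose and 14.7% fell in the CTRL line, and 19.1% rose and 19.5% fell in the CEBPD line. The difference between these groups of genes was not tested.

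Genes of single regions of the ribosome were few. In the stalk that recruits translation factors, MRPL10 and MRPL12 passed in no comparison, and MRPL11 was higher in the CEBPD line at 24 h by 0.25 and at 48 h by 0.34. Around the exit of the tunnel MRPL22, MRPL23 and MRPL45 passed nowhere, the last being the protein that holds the ribosome to the inner membrane. MRPL39 and MRPL44 were lower in the CEBPD line at 0 h, with log2 differences of -0.21 and -0.19, and MRPL47 was higher by 0.18. A further list held 7 small-subunit proteins that do not form a single region, MRPS2, MRPS5, MRPS7, MRPS11, MRPS12, MRPS24 and MRPS35. Of these, 4 fell and 0 rose in the CTRL line by 48 h. They were MRPS2, MRPS7, MRPS11 and MRPS12. In the CEBPD line 3 fell and 1 rose. Of all genes, 14.7% fell and 15.2% rose in the CTRL line, and 19.5% fell and 19.1% rose in the CEBPD line.

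The paralogs MRPS18A, MRPS18B and MRPS18C descend from 1 bacterial protein and sit at different places of the ribosome. MRPS18B was lower in the CEBPD line at every time, with -0.26 at 0 h and -0.50 at 8 h, MRPS18C fell in that line by 0.23 by 48 h, and MRPS18A passed in no comparison. MRPS18A and MRPS30 belong to the large subunit in spite of their symbols. MRPS30 was lower in the CEBPD line at 0 h (-0.32) and rose there by 0.19 both by 8 h and by 48 h. MRPS36, which is a component of the oxoglutarate dehydrogenase complex, passed in none of the 13 comparisons. It was 1 of 18 genes of this kind, together with MRPL10, MRPL12, MRPL13, MRPL22, MRPL23, MRPL38, MRPL43, MRPL45, MRPL46, MRPL48, MRPL53, MRPS16, MRPS18A, MRPS22, MRPS24, MRPS27 and MRPS28. Of the 77 genes tested in all 13 comparisons 22.1% passed in none, against 23.7% of all genes.

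Summed over the 78 genes, the level was 4550 ± 11.3 CPM in the CTRL line at 0 h (SD, n = 3), 4410 ± 42.1 at 8 h, 4605 ± 2.41 at 24 h and 4201 ± 82.5 at 48 h. In the CEBPD line it was 4531 ± 34.8, 4365 ± 52.6, 4702 ± 30.9 and 4485 ± 31.4 CPM. The 48 h sum of the CTRL line was 7.69% under that of 0 h, its wells between 4106 and 4260 CPM, whereas at 0 h they lay between 4541 and 4563 CPM. The difference was -2.38% with library totals. In the CEBPD line the same difference was -1.0% and became 1.31% with library totals, so its direction depends on the scaling. Counts are shares of the RNA in a library, and fewer transcripts per cell cannot be told apart from more of other RNA.

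**Figure D5:**
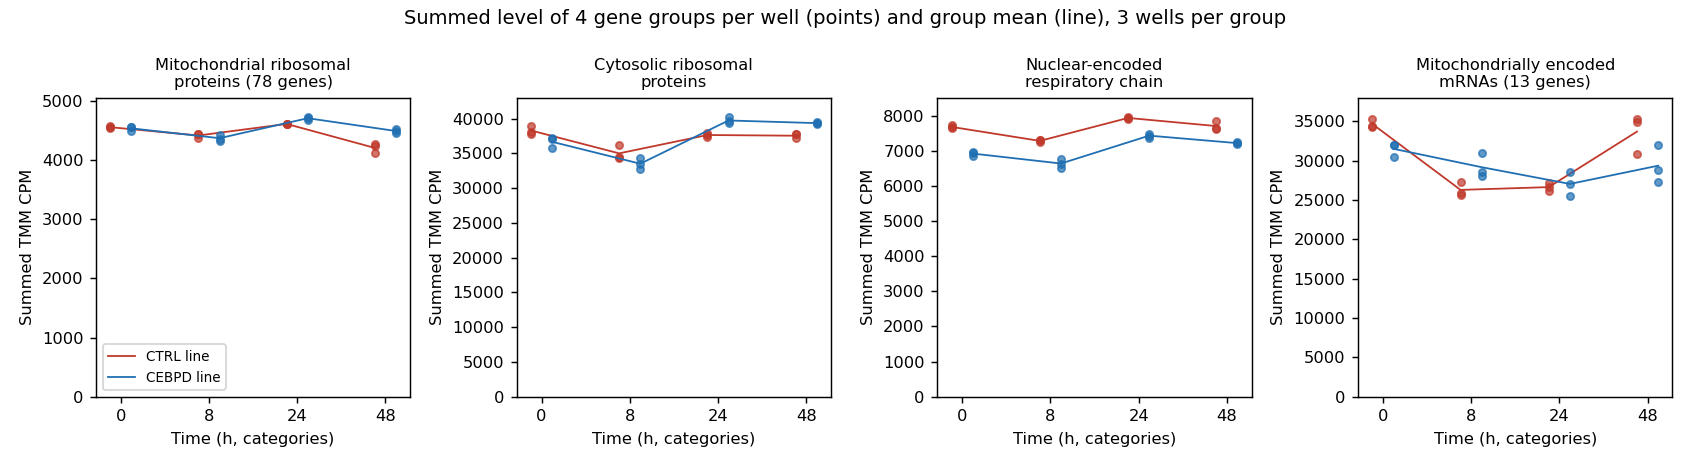
Summed TMM-scaled CPM of the mitochondrial ribosomal protein genes, of cytosolic ribosomal protein genes, of nuclear-encoded respiratory chain genes and of the 13 mRNAs of mitochondrial DNA, by time (categories) in the CTRL line (red) and the CEBPD line (blue). Points are wells and lines join the means of 3 wells. The first group stays between 4106 and 4728 CPM in all 24 libraries.

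Cytosolic ribosomal protein genes and respiratory chain genes were read in the same fits. In the interaction at 24 h, 28 of 81 cytosolic ribosomal protein genes had a higher change in the CEBPD line and 0 a lower one, against 3 and 0 of 78 mitochondrial ribosomal protein genes and 6 and 0 of 78 respiratory chain genes. The medians were 0.16, 0.06 and 0.08 on the log2 scale. At 48 h in the CTRL line 24 mitochondrial ribosomal protein genes fell, against 7 of 81 cytosolic and 4 of 78 respiratory chain genes. In the CEBPD line 21 fell, against 1 and 10. Rising by 48 h were, in the same order, 4, 1 and 5 genes in the CTRL line and 9, 28 and 19 in the CEBPD line. Over all genes 2.86% had a higher change in the interaction at 24 h. By 48 h 14.7% of all genes fell and 15.2% rose in the CTRL line, and 19.5% and 19.1% in the CEBPD line. The number of mitochondrial ribosomal protein genes that fell depended on the scaling, as given above. These lists were set side by side and the difference between them was not tested.

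Among the other genes of the pathway, the 5 proteins of the mitochondrial ribosome under other symbols had 0 rising and 2 falling in the CTRL line by 48 h, DAP3 by 0.28 and AURKAIP1 by 0.25. Of these AURKAIP1 also fell in the CEBPD line. Of 27 factors of ribosome assembly and ribosomal RNA processing, 1 rose and 6 fell in the CTRL line by 48 h. In the CEBPD line 3 rose and 11 fell. Over all genes 15.2% rose and 14.7% fell in the CTRL line, and 19.1% rose and 19.5% fell in the CEBPD line. The RNA methyltransferase MRM3 fell by 0.48 and 0.36, the helicase DDX28 by 0.36 and 0.30, the GTPase MTG2 by 0.33 and 0.29 and the pseudouridine synthase RPUSD4 by 0.38 and 0.25, and METTL15 rose by 0.49 and 0.59. Of 17 factors of translation and mRNA binding, 2 rose and 1 fell in the CTRL line and 3 rose and 0 fell in the CEBPD line. Of 5 genes of mitochondrial transcription, 1 rose and 1 fell in the CTRL line, namely the polymerase POLRMT by 0.30 and the methyltransferase relative TFB2M by 0.38, and 0 passed in the CEBPD line. The mitochondrial ribosomal RNAs, 2 in number, were both called higher at 8 h and at 48 h than at 0 h within the CEBPD line. At 8 h their summed level was 6085 CPM in well 3 but 64.7 and 83 CPM in the other wells, under the 106 to 162 CPM of the 0 h wells, so the call at 8 h rests on well 3.

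Of 9 tested nuclear regulators of mitochondrial biogenesis, 0 rose and 4 fell in the CTRL line by 48 h. The coactivator PPRC1 fell by 0.56, MYC by 0.50, the receptor ESRRA by 0.43 and the coactivator PPARGC1B by 0.25. For the CEBPD line these were 0 and 3, with PPRC1 by 0.49, NRF1 by 0.24 and YY1 by 0.14. Over all genes 15.2% rose and 14.7% fell in the CTRL line, and 19.1% rose and 19.5% fell in the CEBPD line. The change of MYC was higher in the CEBPD line by 0.40 at 24 h and by 0.50 at 48 h, both called. Of the 13 mRNAs of mitochondrial DNA, which the ribosome translates, 0 rose and 11 fell in the CTRL line by 24 h. In the CEBPD line 0 rose and 8 fell. Over all genes 2.81% rose and 3.25% fell by 24 h in the CTRL line, and 7.33% rose and 8.14% fell in the CEBPD line. The change of these mRNAs was higher in the CEBPD line for 10 of 13 at 8 h and 6 of 13 at 24 h. Over all genes these shares were 0.887% and 2.86%. The 8 h count is given with all wells only. In the same interaction test at 8 h and 24 h, 0 and 3 of the 78 mitochondrial ribosomal protein genes passed.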

How the data were processed

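RNA of 24 libraries was analysed, 3 wells for each of 2 MIA PaCa-2 lines at 4 times. The deposited values are whole counts of reads per Ensembl gene, which the authors made by trimming, alignment to GRCh38 and counting. The submitters' notes name Trimmomatic 0.36, HISAT2 2.3.4.3 and HTSeq, and the treatment of strand and multi-mapped reads is not given in the sources used here. From these counts edgeR 4.0.16 (R 4.3.3) was run, with TMM scaling, filterByExpr, a two-sided quasi-likelihood test and Benjamini-Hochberg adjustment over all genes tested, at an FDR of 0.01, in 13 comparisons. Each fit used the 6 or 12 libraries of the groups compared. SE are those of the fitted log2 differences. Symbols, exon lengths and overlaps come from GENCODE 44 on the same assembly.

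The members and all lists were chosen with earlier results of these data known. Named genes are the 5 largest changes past the FDR in each direction whose wells do not overlap (line comparisons at 0 h and 24 h, changes by 24 h, and the interaction at 24 h past the FDR alone), the 3 highest and 3 lowest levels per kb, and members of the lists of the stalk, the peptide exit, the MRPS18 paralogs, large-subunit proteins with an MRPS symbol and the member outside the ribosome. The 3 largest at 0 h in each direction among genes called at all 4 times, and other list genes past the FDR, were also named. Genes named outside this rule were picked once their values had been seen. Among them are the other members called at all 4 times and those of 8 h and 48 h. The genes named from the further list of small-subunit proteins, and the promoter matches, were also of this kind. The NRF1 and ZNF143 motifs were shortened by 1 base after a first search of the windows.

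Same-numbered wells were checked for pairing. In the comparison of 24 h with 0 h in the CTRL line every pair's deviations correlated at 0.107 or more, though no label says what a number marks. The values reported for that comparison come from the fit without a replicate block. With the block 4 genes were called there, as without it. In the other comparisons the lowest correlation of a pair was 0.063 or less. The scripts were tested on simulated data with known changes. Alternatives were DESeq2 1.42.0, other scaling and filters, a replicate block, 1 model of all libraries, analysis of variance for each gene, computed from log2(CPM + 1), and leaving out each library.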

Additional observations from a re-analysis of the deposited data

Results flagged for a closer look

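The change from 0 h differed between the lines, by the interaction test itself, for 7 combinations of gene and time. On the log2 scale, the change in the CEBPD line over that in the CTRL line was 0.51 for MRPL33, 0.28 for MRPS15 and 0.25 for MRPS21 at 24 h. At 48 h it was 0.69 for MRPL33, 0.59 for MRPL54, 0.32 for MRPS35 and -0.55 for MRPL24. The calls of MRPL33 at both times, of MRPS15 and of MRPL24 held in all 20 alternatives tried for each, the highest adjusted p under edgeR, DESeq2 or analysis of variance being 0.00982 for MRPS15 and 0.000526 for MRPL24. Those of MRPS21, MRPL54 and MRPS35 were lost in 14, 2 and 4 of 20. Groups of 3 wells are too small for a search for single deviating wells.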

How the results depend on the processing

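Of 211 calls of single genes, 66 held under every alternative and 0 reversed. Under the per-gene analysis of variance the number of genes called between lines was 17, 7, 19 and 11 at 0, 8, 24 and 48 h. In the CTRL line it was 0 at 24 h and 8 at 48 h, in the CEBPD line 0, 0 and 8 at 8, 24 and 48 h, and in the interaction at 48 h 2. In 1 model of all libraries 1 gene was called in the CTRL line at 24 h and 9 in the CEBPD line at 8 h. With library totals 7 were called in the CEBPD line at 24 h, all rising. With the replicate block 18 were called in the CTRL line at 48 h in place of 28, where same-numbered wells were not correlated. No other count of calls moved by over 1.5 times with the block.

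Leaving out 1 library at a time gave 27 to 33, 7 to 23, 36 to 41 and 18 to 30 genes between lines at 0, 8, 24 and 48 h. In the CTRL line it gave 0 to 1, 2 to 5 and 19 to 30, in the CEBPD line 13 to 18, 2 to 5 and 23 to 32, and in the interaction 0 to 2, 2 to 3 and 3 to 5, at 8, 24 and 48 h. The lowest number between lines at 8 h, 7, was found without CEBPD well 1. That at 48 h, 18, was found without CTRL well 3.

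Library totals changed the summed level as follows. The difference from 0 h in the CTRL line went from -3.08% to 1.86% at 8 h, from 1.20% to 2.57% at 24 h and from -7.69% to -2.38% at 48 h. In the CEBPD line it went from -3.67% to -1.62%, from 3.78% to 4.90% and from -1.0% to 1.31%. Between lines at 0 h it went from -0.43% to 3.21%. With RLE factors the CTRL line at 24 h stood at 0.0678%. The median level per kb was 33.5 CPM with canonical in place of merged length. The cause of these shifts was not tested.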
